A study of Drosophila melanogaster with 2 samples.

Results

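Of the 13931 genes quantified in control and *bs* knockdown (KD) flight muscle, 15 had a deposited gene length that differed by at least 1.5-fold between the libraries. The members were taken as genes with at least 10 TPM (an abundance per transcript, scaled for gene length and library size) and at least 100 estimated reads in both libraries, whose length in *bs* KD over that in the control was at least 1.5 or at most 0.67. These filters left 1780 genes, of which 5 were longer in *bs* KD (0.281% of the genes tested) and 10 were shorter (0.562%). The members were thus chosen by their deposited lengths in both libraries, so the ratios of these lengths are descriptions.

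Both libraries were made from indirect flight muscles (IFMs), the fibrillar muscles that power the wings, dissected from 4 pooled females aged 3 days and reared at 29°C. The control carried the driver alone (*1151/+*, from *1151-Gal4* crossed to *w1118*), and *bs* KD (*1151>bs[RNAi KK108659]*) expressed from the same driver an RNAi construct against the RA and RC transcripts of *bs*, the gene of the *Drosophila* serum response factor. This driver acts in the myoblasts and founder cells of all adult muscles, so the knockdown was not limited to IFMs. With 1 library per genotype, no difference below has a replicate check, and variation between flies or dissections cannot be told apart from an effect of the genotype.

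The estimated reads summed to 20955053 in control IFMs and 19767477 in *bs* KD. Knockdown muscle held *bs* at 1.80 TPM, against 2.75 TPM in the control. These values take all *bs* transcripts together, including RB, which the construct does not target. The paper measured RA and RC together, apart from RB, by quantitative RT-PCR in flight and jump muscles. It reported a far larger reduction there than that of total *bs* here. Levels of the single *bs* transcripts are given under the other observations. All 5 flight muscle markers were present in both libraries, with summed levels of 60106 and 38008 TPM. *Act88F*, the flight muscle actin, stood at 33115 and 7471 TPM. *Mhc* (6295 and 4993 TPM) and *salm* (16.8 and 6.31 TPM) were also lower in *bs* KD. The markers *fln* (13111 and 16500 TPM) and *TpnC4* (7568 and 9037 TPM) were higher in *bs* KD. The 5 tracheal markers summed to 38.4 TPM in control muscle and 8.76 TPM in *bs* KD, and the 6 fat body markers to 24.5 and 20.9 TPM. All tracheal markers were lower in *bs* KD, *verm* (14.0 and 0.740 TPM) far more than *btl* (1.45 and 1.12 TPM). Of the fat body markers only *Yp1* was higher (4.35 and 9.31 TPM). The others were lower, such as *Fbp1* (1.96 and 0.222 TPM) and *Yp2* (13.2 and 10.4 TPM). The 2 jump muscle markers summed to 20.9 and 40.9 TPM, through *TpnC41C* (1.96 and 21.3 TPM) and not *Act79B* (18.9 and 19.5 TPM), and those of glia, gut, hemocytes, neurons and ovary to at most 6.60 TPM per cell type. The part of such cells in the transcript shifts was not tested.

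A gene can give transcripts of different length through alternative promoters, alternative exons and alternative cleavage and polyadenylation sites. Muscle uses all of these routes, and many contractile and cytoskeletal genes are known to make muscle-specific forms of their proteins. Alternative ends change only the untranslated tail of the mRNA in many genes, whereas alternative starts and exons often change the protein. A quantification program apportions each read among the annotated transcripts it matches, so that transcripts differing by few bases are separated by few reads.

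The deposited length was first compared with the annotated transcripts of genome Release 6 (BDGP6.54 annotation). Among the 513 tested genes with a single annotated transcript, 511 had a deposited length within 1 base of that transcript in both libraries. Among the 1252 tested genes with several transcripts, however, the deposited length was below the shortest annotated transcript in 91.6% of genes in control IFMs and 91.0% in *bs* KD. A mean of transcript lengths cannot be below the shortest of them, so the label of a shifted transcript length was checked against another measure.

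That measure was the length implied by the reads and the TPM of a gene. In 99.8% of the single-transcript genes of each library, estimated reads were the product of TPM, effective length and 1 constant, within 0.1% (the effective length being the length minus 99 bases for reads of 100 bases). Dividing reads by TPM and by this constant therefore gave the effective length that had entered the TPM. The implied length lay within the annotated range in 1251 of the 1252 genes with several transcripts in either library, and in both libraries for all 15 members. The deposited length was lower than the implied length by a divisor, which could be obtained from the reads and TPM or from the difference between deposited length and effective length. These estimates of the divisor differed by at most 0.0659% in any tested gene.

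The divisor depended on which transcripts were used and not on how long they were. In all 416 tested genes with 2 annotated transcripts at least 50 bases apart, the divisor was 1 plus the share of 1 of the transcripts, within 0.02. In 400 of them (96.2%) this was the transcript with the lower FlyBase number, and in the other 16 it was the transcript with the higher number. In these genes the deposited length thus usually fell when the transcript listed first gained share and rose when it lost share, whichever of them was longer. For genes with 3 to 10 transcripts, weights that decreased by 1 per transcript in the order of their numbers could give both deposited values in 609 of 684 genes, and the reversed order could do so in 288.

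**Figure D1:**
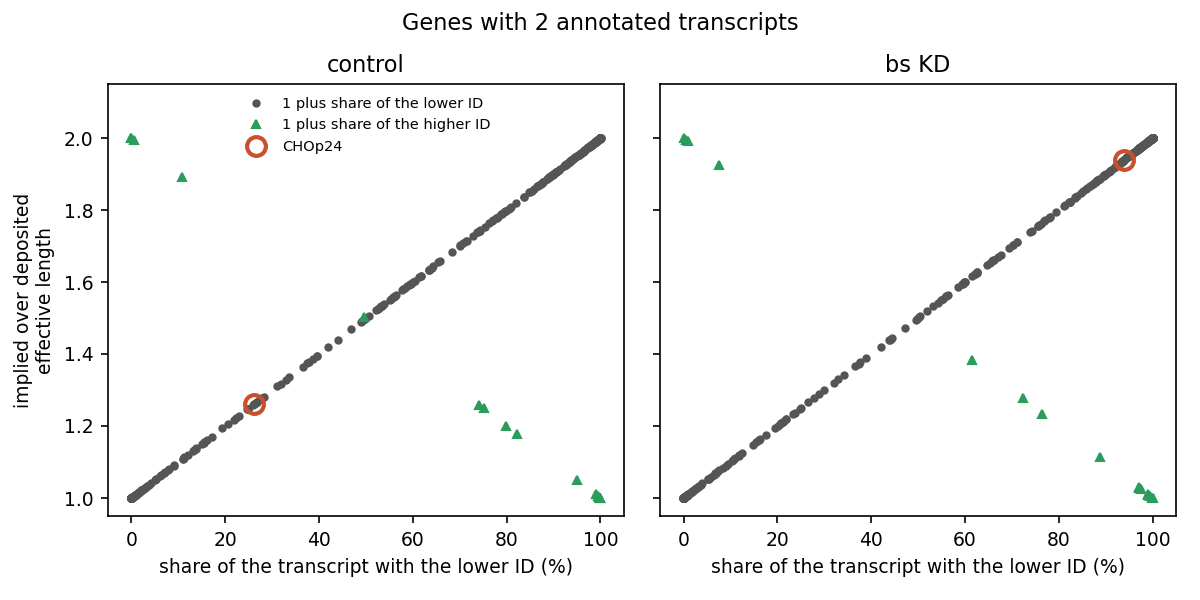
Implied over deposited effective length (the divisor) against the share of the transcript with the lower number (%), for the 416 tested genes with 2 annotated transcripts, in the control (left) and *bs* KD (right). Each point is a gene, and nearly all points lie on the line of 1 plus that share. *CHOp24* (ring), a member with 2 transcripts, moved from 26.1% to 94.0%.

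By implied length, only *Mbs* passed the same threshold (0.0562% of the 1780 genes), and no gene was longer by 1.5-fold or more (0%). *Stacl* came next, with an implied length ratio of 1.46. The other 13 members had implied lengths within 10% of each other in the 2 libraries, with ratios from 0.90 to 1.08. The median implied ratio was 0.974 for the shorter members, 1.06 for the longer members and 1.00 for all tested genes, of which the middle 90% lay between 0.975 and 1.03. For 13 of the 15 members the transcripts therefore differed in their shares without a large difference in mean length, and the 15 genes are described here as genes with shifted transcript usage, in which "shorter" and "longer" refer to the deposited length.

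**Figure D2:**
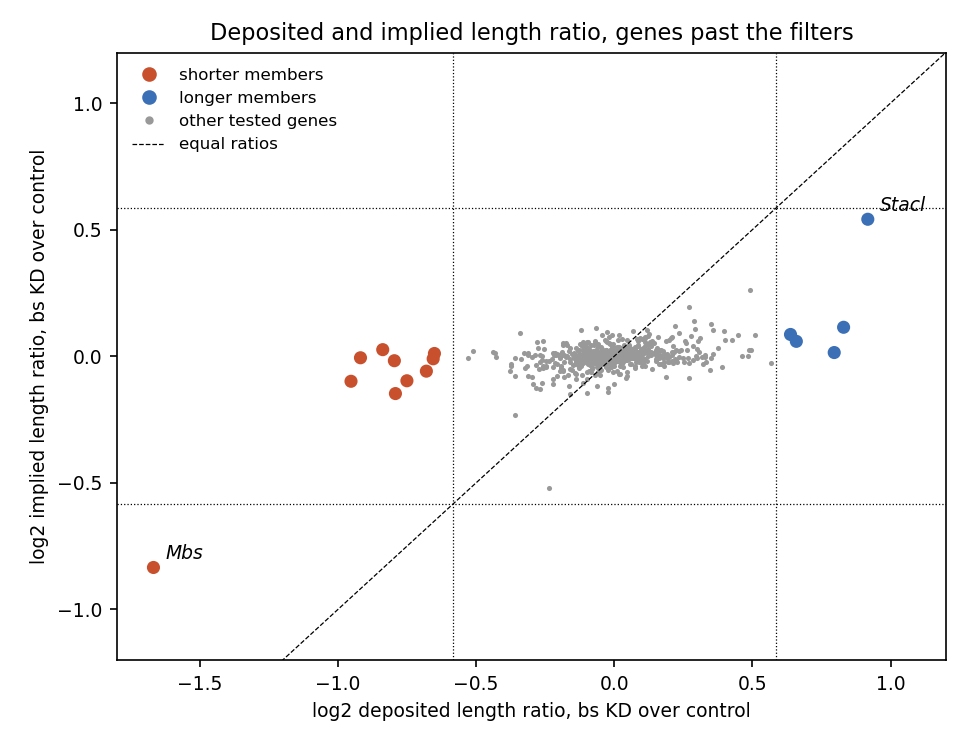
log2 ratio of the deposited length (x axis) and of the implied length (y axis), *bs* KD over control, for the 1780 tested genes. Dotted lines mark ratios of 0.67 and 1.5. The members lie far to the left or right by the rule, but only *Mbs*, with an implied ratio of 0.56, lies beyond a line on the y axis.

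**Figure D3:**
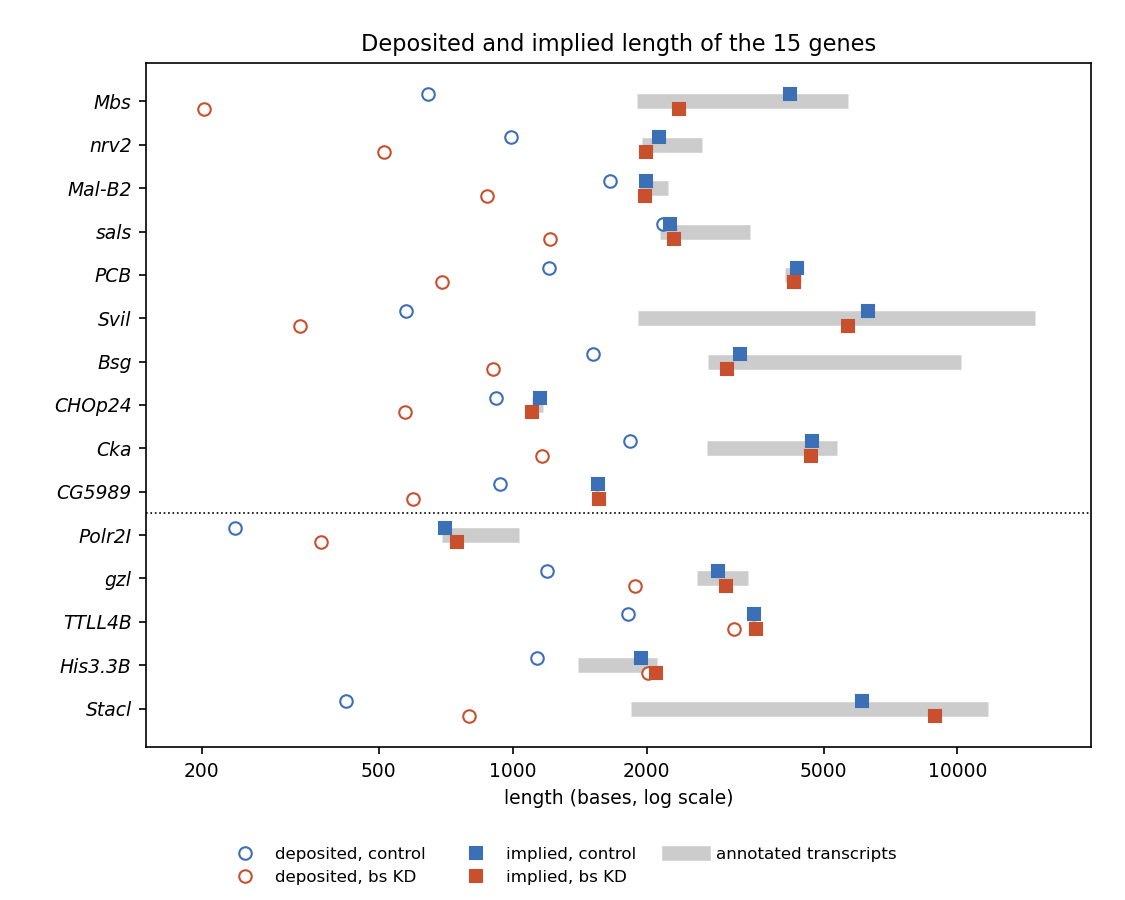
Deposited length (open circles) and implied length (squares) of the 15 members in the control (blue) and *bs* KD (red), in bases on a log axis, with the range of annotated transcript lengths in gray. All implied lengths lie on the gray bars, whereas the deposited lengths of 14 members in each library lie below them.

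For each member, the smallest share of transcripts that must have differed between the libraries was computed from the implied lengths and divisors, whatever the order of the transcripts. This share, like all ranges of shares given below, took the estimated reads and TPM as exact and left out counting error. It ranged from 12.2% in *sals* to 67.9% in *CHOp24*, with a median of 28.7%. Where the number order was used in addition, both libraries could be fitted in 13 members, and 10 of these had a smallest moved share of at least 25%. Of the 1252 tested genes with several transcripts, 1151 could be fitted in this way, and a share of at least 25% held for 38 of these (3.3%), with a median of 3.13%. Because the divisor is part of the deposited length, these counts follow from the rule and are not evidence that the members stand apart. In the number order, the range of possible shares of at least 1 transcript or group of transcripts did not overlap between the libraries in 10 of the 13 members, against 58.9% of the 1151 genes. From the implied length alone, without any order, this held in 7 of the 15 members (*Mbs*, *Mal-B2*, *CHOp24*, *CG5989*, *TTLL4B*, *Polr2I* and *His3.3B*), against 34.7% of the 1251 genes that could be fitted. In genes with 3 or more transcripts the counts were 9 of 12 members against 49.6% in the number order and 6 of 14 against 13.9% from length alone. A lack of overlap says nothing about the size of a shift, and since the members were chosen by a length that contains the divisor, nothing is read from these counts.

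The contractile and actin-associated genes among the shorter members were *Mbs*, *sals* and *Svil*. *Mbs* encodes the myosin-binding subunit of myosin phosphatase, which removes phosphate from the regulatory light chain of nonmuscle and smooth muscle-type myosin. The gene (FBgn0005536) lies on chromosome arm 3L from 16051959 to 16082026 on the plus strand and has 18 annotated transcripts of 1906 to 5686 bases. Its deposited length was 644 bases in control muscle and 203 bases in *bs* KD. Its implied length was 4209 bases in control IFMs and 2361 bases in *bs* KD, 43.9% shorter. In words, the mean *Mbs* length of the control fell among the lengths of the longer transcripts, and that of *bs* KD among those of the shorter ones. Such a mean can also come from a mixture of both.

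The shorter *Mbs* transcripts share a start that the longer ones do not have. Of the 18 transcripts, 12 begin at the first base of the gene and are 4003 to 5686 bases long, and the other 6 begin 21407 bases further in and are 1906 to 2869 bases long. From the implied length alone, transcripts from the inner start made up at most 52.4% of *Mbs* transcripts in control muscle and at least 78.3% in *bs* KD. Adding the number order gave limits of 51.9% and 83.9%. The gene stood at 16.6 TPM (1238 reads) in control IFMs and 126 TPM (5192 reads) in *bs* KD, so the inner start accounted for at most 8.71 TPM in control muscle and at least 98.4 TPM in *bs* KD. The start site groups are told apart by much sequence, since 1379 stretches of 100 bases occur only in transcripts from the inner start and 5922 only in those from the outer start. The inner transcripts with the lowest numbers, *Mbs-RE* and *Mbs-RF*, have coding sequences of 1131 and 1101 bases and lack the first coding exons of the gene. Leaving out the 5 transcripts with the newest numbers, which the authors' annotation may not have held, the inner start had at most 45.0% in control IFMs and at least 78.3% in *bs* KD.

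*sals* (sarcomere length short), which promotes the elongation of thin filaments, had the most stable mean length of these genes. The gene (FBgn0051374; 3R, 11437547 to 11451791, minus strand) has 8 transcripts, and its deposited length was 2174 bases in control muscle and 1216 bases in *bs* KD. The implied length was 2264 and 2305 bases. In the number order, *sals-RH*, which has 8 exons and a coding sequence of 1797 bases, held 97.9% to 99.2% of transcripts in control IFMs and 64.9% to 85.9% in *bs* KD. *sals-RE*, which has the same start and end, 1 exon fewer and a coding sequence of 1689 bases, could hold at most 1.08% in control muscle and up to 27.3% in *bs* KD. Without this order the ranges of *sals-RH*, of at most 99.2% and at most 95.7%, overlap almost entirely. The total level was similar, at 179 TPM (7035 reads) and 163 TPM (6585 reads). The share of transcripts that must have differed without any order, 12.2%, was the lowest of all members, which is a lower limit and not the size of the shift.

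*Svil* encodes supervillin, an actin-binding protein of the villin family. This gene (FBgn0266696; 3L, 2377655 to 2499226, plus strand) has 31 transcripts from 16 starts, with lengths of 1917 to 14937 bases. Its deposited length was 576 bases in control IFMs and 333 bases in *bs* KD, and its implied length was 6300 and 5688 bases. By these estimates at least 20.5% of its transcripts differed, but no single transcript was bounded, since every share in either library could have been 0. Its level was 22.9 TPM (2575 reads) in control muscle and 17.5 TPM (1787 reads) in *bs* KD.

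Genes of the cell surface formed a second group of shorter members. *nrv2* encodes a beta subunit of the sodium pump (Na,K-ATPase), which the pump needs to reach the plasma membrane. The gene (FBgn0015777; 2L, 6789770 to 6798862, minus strand) has 6 transcripts that end at the same base and start at 4 different ones. Its deposited length was 994 bases in control IFMs and 513 bases in *bs* KD, and its implied length 2131 and 1990 bases. *nrv2-RF*, which starts 2079 bases into the gene, held by the number order 73.8% to 93.5% of transcripts in control muscle and at most 13.3% in *bs* KD. The 3 transcripts from the innermost start, 4263 bases into the gene, held 6.48% to 20.4% in control IFMs and 86.7% to 100% in *bs* KD. These start groups use different first coding exons, with coding sequences of 969 and 966 bases.

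The level of *nrv2* was 10.4 TPM (383 reads) in control muscle and 84.6 TPM (2921 reads) in *bs* KD. The innermost start thus accounted for at most 2.12 TPM in control IFMs and at least 73.3 TPM in *bs* KD in the number order. Length alone, with no order, allowed 5.86% to 100% for these transcripts in control muscle and at least 78.6% in *bs* KD, ranges that overlap. In *Mbs*, and in *nrv2* by the number order, the start nearer the end of the gene gained share. The TPM of both genes was at least 2-fold higher in *bs* KD, as it was for 11.5% of tested genes.

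*Bsg* encodes basigin, a transmembrane protein with immunoglobulin domains. The gene (FBgn0261822; 2L, 8083420 to 8116531, plus strand) has 10 transcripts, of which 6 end 26038 bases into the gene and 4 run to its last base with a far longer untranslated tail. The deposited length was 1519 bases in control IFMs and 903 bases in *bs* KD, and its implied length 3251 and 3040 bases. From length alone, the long-tailed transcripts held 2.57% to 8.90% in control muscle and at most 5.20% in *bs* KD, so that the nearer end was the main one in both libraries. The number order could not give the control values, and no shares by that order are given. The level was 49.7 TPM (2841 reads) and 62.9 TPM (3376 reads).

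Metabolic enzymes were represented by *Mal-B2* and *PCB*. *Mal-B2* encodes a maltase, which splits maltose into glucose. The gene (FBgn0032382; 2L, 11849958 to 11852881, plus strand) has 3 transcripts, and its deposited length was 1656 bases in control IFMs and 876 bases in *bs* KD. Its implied length was nearly the same in both, 1989 and 1981 bases. *Mal-B2-RF*, the only transcript with the farther end, held 17.9% to 20.3% in control muscle and 15.2% to 17.6% in *bs* KD, whatever the order. *Mal-B2-RA* and *Mal-B2-RE* differ by only 8 bases in length but start at different bases, and the remaining transcripts moved between them. By these estimates at least 53.0% of transcripts differed, but the direction was not determined. Of the possible orders, 1 gave 0.0628% for *Mal-B2-RA* in control IFMs and 55.0% in *bs* KD, and the other gave 80.9% and 28.6%. The level was 16.8 TPM (575 reads) and 24.6 TPM (844 reads).

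*PCB* encodes pyruvate carboxylase, the mitochondrial enzyme that replenishes oxaloacetate. The gene (FBgn0027580; 2R, 9850703 to 9861543, minus strand) has 10 transcripts that share their end, come from 3 starts and have a coding sequence of either 3543 or 3591 bases. As deposited, its length was 1207 bases in control muscle and 695 bases in *bs* KD, and its implied length 4354 and 4301 bases. *PCB-RM* held by the number order 21.8% to 62.6% of transcripts in control IFMs and at most 31.8% in *bs* KD. Those ranges overlap. So do those of the 4 transcripts of the middle start, *PCB-RM* among them, at 60.1% to 100% in control muscle and 39.3% to 100% in *bs* KD. The level was 18.7 TPM (1446 reads) and 14.2 TPM (1090 reads).

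The remaining shorter members were *CHOp24*, *Cka* and *CG5989*. *CHOp24* encodes a p24-family cargo receptor of vesicles between the endoplasmic reticulum and the Golgi. The gene (FBgn0029709; X, 4540908 to 4542506, plus strand) has 2 transcripts with the same start and coding sequence, *CHOp24-RA* of 1104 bases and *CHOp24-RB* of 1172 bases, which differ by 68 bases at the end of the untranslated tail. Its length in the table was 915 bases in control IFMs and 571 bases in *bs* KD, and its implied length 1154 and 1108 bases. The share of the longer *CHOp24-RB* was 73.9% in control muscle and 6.03% in *bs* KD.

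Most reads match both forms of *CHOp24* equally well, and these shares rest on few that do not. Only 68 stretches of 100 bases occur in *CHOp24-RB* and not in *CHOp24-RA*, and no stretch is particular to *CHOp24-RA*. At the given shares, about 10 of the 211 reads of the control and about 1 of the 275 reads of *bs* KD would fall on that sequence. These numbers of reads were computed from the shares and were not counted. Counting error alone gave *CHOp24-RB* exact 95% intervals of 35.6% to 100% in control muscle and 0.137% to 29.8% in *bs* KD. *CHOp24* was 1 of 2 genes among the 416 with 2 transcripts (0.481%) whose share moved by at least 50 percentage points, and the median move was 1.53 points.

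*Cka* encodes the striatin-family scaffold of the STRIPAK phosphatase complex, which acts on JNK and Hippo signaling. The gene (FBgn0044323; 2L, 8030721 to 8040826, plus strand) has 7 transcripts. The deposited length was 1832 bases in control muscle and 1163 bases in *bs* KD, and its implied length 4717 and 4685 bases. In both libraries the farther end predominated, with 68.9% to 82.6% of transcripts in control IFMs and 67.4% to 81.3% in *bs* KD from length alone. Taken in the number order, the 4 transcripts with a coding sequence of 2190 bases held 7.61% to 29.4% in control IFMs and 42.8% to 65.0% in *bs* KD, whereas length alone allowed any share from 0% to 100% in both. *Cka-RF*, with a coding sequence of 2241 bases, had 56.9% to 73.5% in control muscle and 22.9% to 57.2% in *bs* KD, ranges that overlap slightly. The level was 12.9 TPM (1078 reads) and 10.5 TPM (876 reads).

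*CG5989*, a gene of unknown function (FBgn0017429; 3L, 8602411 to 8604149, minus strand), has 3 transcripts of 4 exons with the same start and end and coding sequences of 1308, 1302 and 1275 bases. They thus differ only in internal splice sites. As deposited, the gene measured 936 bases in control IFMs and 596 bases in *bs* KD, and its implied length 1552 and 1564 bases. Whatever the order, the shortest form, *CG5989-RC*, held 33.1% to 47.1% of transcripts in control muscle and at most 11.4% in *bs* KD. In the number order *CG5989-RA*, the longest form, held at most 1.68% in control IFMs and 66.2% to 69.8% in *bs* KD. A different possible order gave 45.5% and 37.7% for *CG5989-RA*, so only the loss of *CG5989-RC* held under each of the 3 possible orders. The level was 92.0 TPM (2424 reads) and 134 TPM (3596 reads).

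**Figure D4:**
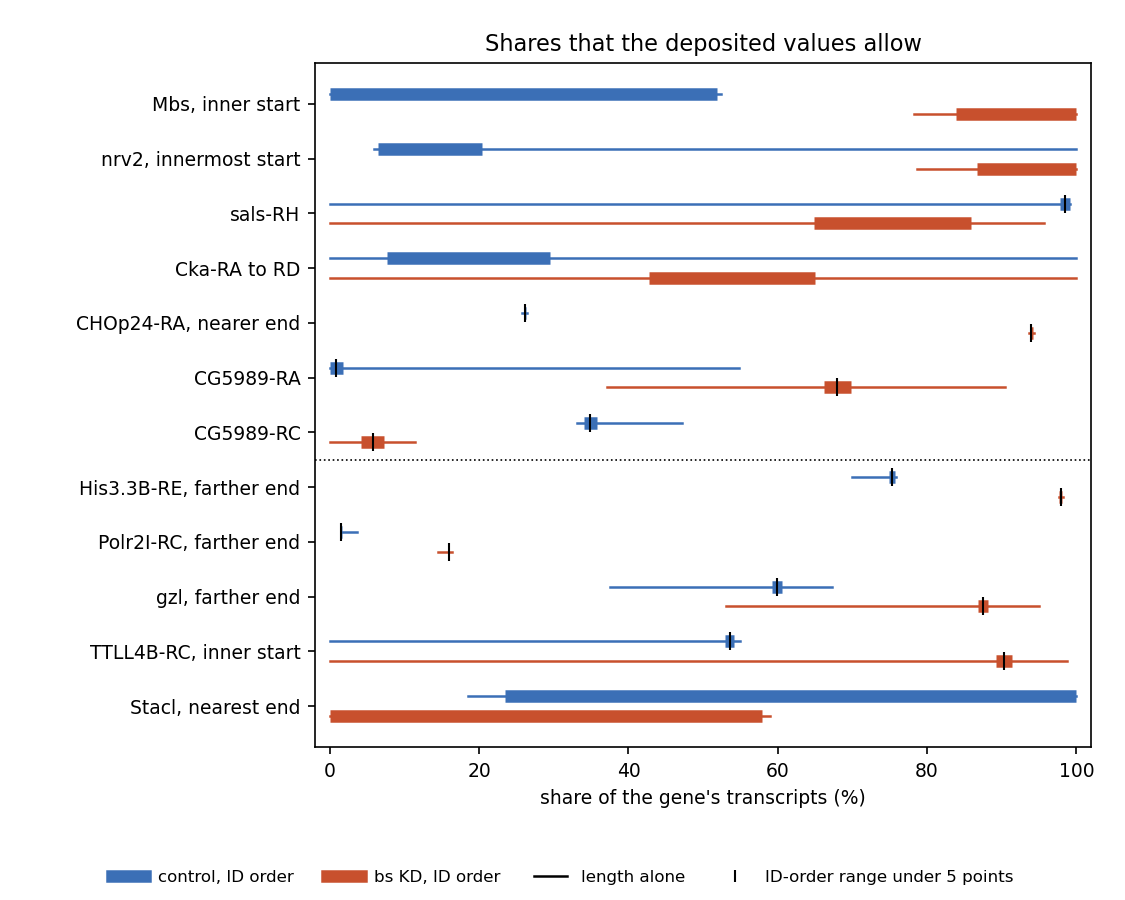
Range of the share (% of the gene's transcripts) that the deposited values allow for selected transcripts or groups of transcripts, in the control (blue) and *bs* KD (red). Thin lines use the implied length alone, thick bars also use the number order, and black ticks mark bars narrower than 5 points. Shorter members stand above the dotted line and longer members below it, and the thick bars of *Mbs*, *nrv2*, *CHOp24* and *His3.3B* lie well apart while those of *Stacl* overlap.

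Among the 5 longer members, *Stacl* had the largest difference in implied length. *Stacl* encodes a Stac-like adaptor, a family that associates with voltage-gated calcium channels in muscle and neurons. The gene (FBgn0263980; 2R, 15401096 to 15471884, plus strand) has 18 transcripts of 1842 to 11747 bases. Its length in the table was 421 bases in control muscle and 796 bases in *bs* KD. Its implied length was 6116 bases in control IFMs and 8900 bases in *bs* KD, 45.5% longer.

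The difference in *Stacl* rested on 20005 reads in control muscle and 12372 in *bs* KD, the most of any member, and its level was 183 and 77.0 TPM. Of its transcripts, 10 end 62750 bases into the gene and are at most 6916 bases long, whereas those with the 2 farther ends are 7086 to 11747 bases long. From length alone, the nearest end had to hold at least 18.5% in control IFMs and at most 59.0% in *bs* KD. No single transcript was bounded away from 0 in either library, and the ranges overlapped for every start and end. By these estimates the libraries differed by at least 28.1% of *Stacl* transcripts. Its TPM was at least 2-fold lower in *bs* KD, which was the case for 4.04% of tested genes.

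*His3.3B* encodes the replacement histone H3.3, which is placed in chromatin outside of replication. The gene (FBgn0004828; X, 9152523 to 9156669, minus strand) has 4 transcripts with 1 coding sequence. *His3.3B-RE*, of 2114 bases, runs to the farther end, and the other 3, of 1399 to 1537 bases, stop 715 bases before it. The deposited length was 1132 bases in control muscle and 2012 bases in *bs* KD, and its implied length 1941 and 2101 bases. From length alone, *His3.3B-RE* held 69.9% to 75.8% of transcripts in control IFMs and 97.7% to 98.2% in *bs* KD. The middle of the range in the number order was 75.3% in control muscle and 97.9% in *bs* KD.

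The extended tail of *His3.3B-RE* contributes 715 stretches of 100 bases found in no other transcript of the gene. At these shares about 492 of the 1683 reads of the control and 664 of the 1898 reads of *bs* KD would fall on it, numbers again computed from the shares. Counting error alone gave *His3.3B-RE* exact 95% intervals of 69.7% to 81.1% in control muscle and 91.9% to 100% in *bs* KD. The total level was nearly equal, at 50.4 and 51.9 TPM.

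*Polr2I* encodes a small subunit of RNA polymerase II. The gene (FBgn0004855; 3R, 14309089 to 14310178, plus strand) has 3 transcripts with the same start and coding sequence. As deposited, its length was 238 bases in control muscle and 370 bases in *bs* KD, and its implied length 706 and 750 bases. *Polr2I-RC*, of 1035 bases, has the farther end, and from length alone it held 1.49% to 3.59% of transcripts in control IFMs and 14.5% to 16.3% in *bs* KD. Its own sequence of 334 stretches would carry about 1 of 133 reads in control muscle and 18 of 219 in *bs* KD, as computed from these shares. Counting error alone gave *Polr2I-RC* exact 95% intervals of 0.0346% to 7.49% in control muscle and 9.63% to 24.7% in *bs* KD. *Polr2I-RA* and *Polr2I-RB* differ by 7 bases. Their shares depend on the order used, and *Polr2I-RA* held 98.3% in control IFMs and 18.4% in *bs* KD by number, or 97.7% and 43.6% in the other possible order. *Polr2I* had the fewest reads of all members, and its level was 12.1 and 18.4 TPM.

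*gzl* (godzilla) encodes a RING-type ubiquitin ligase of endosomes. The gene (FBgn0037442; 3R, 6382914 to 6388304, plus strand) has 4 transcripts with the same coding sequence. Its length in the table was 1195 bases in control muscle and 1887 bases in *bs* KD, and its implied length 2894 and 3014 bases. *gzl-RA*, the only transcript with the nearer end, held by the number order 39.4% to 40.8% in control IFMs and 11.8% to 13.2% in *bs* KD. Length alone gave 32.8% to 62.5% and 5.04% to 46.9%, ranges that overlap. The level was 15.6 TPM (791 reads) and 17.4 TPM (928 reads).

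*TTLL4B* encodes a tubulin tyrosine ligase-like enzyme, a family that adds amino acids to tubulin. The gene (FBgn0031574; 2L, 3862668 to 3867507, plus strand) has 3 transcripts. The table gave it a length of 1815 bases in control muscle and 3151 bases in *bs* KD, and its implied length 3481 and 3516 bases. From length alone, *TTLL4B-RB* held 43.7% to 46.8% of transcripts in control IFMs and at most 2.97% in *bs* KD. The lengths of *TTLL4B-RA* and *TTLL4B-RC* differ by 2 bases, so that which of them took its place depends on the order. Of these, *TTLL4B-RC*, which starts 462 bases into the gene, held by number 53.0% to 54.2% in control muscle and 89.3% to 91.4% in *bs* KD. The level was 15.4 TPM (947 reads) and 12.8 TPM (800 reads).

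**Figure D5:**
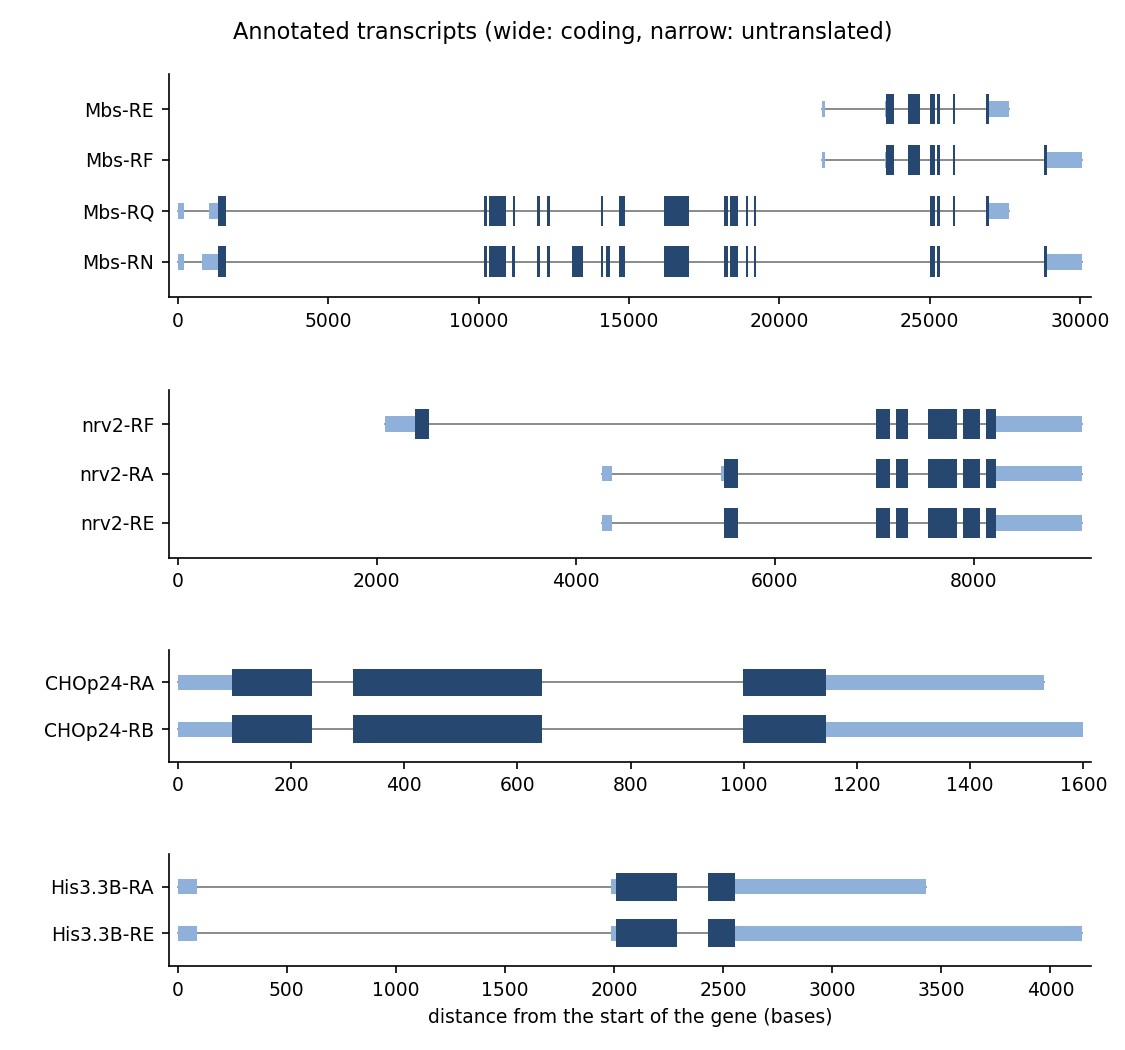
Exons of selected transcripts of *Mbs*, *nrv2*, *CHOp24* and *His3.3B* against the distance from the start of the gene in the direction of transcription (bases). Wide boxes are coding and narrow boxes untranslated. *Mbs* and *nrv2* transcripts differ in their starts, and the transcripts drawn for *CHOp24* (*CHOp24-RA*, *CHOp24-RB*) and *His3.3B* (*His3.3B-RA*, *His3.3B-RE*) only at the end of the untranslated tail.

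The members were then compared by the kind of difference between their transcripts. Taken by number, groups with a different start did not overlap between the libraries in 4 of 13 members (*Mbs*, *nrv2*, *sals* and *TTLL4B*), against 27.3% of all genes that could be fitted. Groups with a different end did not overlap in 5 (*CHOp24*, *His3.3B*, *Polr2I*, *gzl* and *TTLL4B*), against 30.7%. For groups with a different length of coding sequence this held in 5 (*nrv2*, *sals*, *Cka*, *CG5989* and *TTLL4B*), against 16.8%. The ends of *TTLL4B* lie only 4836 and 4839 bases into the gene. *TTLL4B-RA*, with the nearer of these ends, gained share by number but lost share in another possible order. From length alone, a start group was apart only in *Mbs* (14.9% of all genes), an end group in 4 members, *CHOp24*, *His3.3B*, *Mal-B2* and *Polr2I* (19%), and a coding group only in *CG5989* (7.03%). In *CHOp24*, *Polr2I*, *gzl* and *His3.3B* all annotated transcripts have 1 coding sequence. For 3 of these 4, *His3.3B*, *Polr2I* and *gzl*, the farther end gained share in *bs* KD in the number order, and for *CHOp24* it lost share. The ranges of *gzl* overlap without the order, and the grouping into longer and shorter members follows from the shares that these directions describe.

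Members had more annotated transcripts than most genes, with a median of 6 against 2 for all tested genes and 3 for tested genes with several transcripts. The share of genes called was 0.200% among those with 2 transcripts, 1.44% with 3 or 4, 1.22% with 5 to 9 and 5.75% with 10 or more. The divisor can vary over a wider range where there are more transcripts. Members lay on the X chromosome (2) and on arms 2L (5), 2R (2), 3L (3) and 3R (3). Exons of 4 members overlapped another annotated feature, by 51 to 297 bases. The overlapping genes with values were *CG17230*, antisense to *sals*, at 0.115 TPM in control IFMs and 0.0363 TPM in *bs* KD, and *CG7367*, antisense to *Cka*, at 0.211 and 0 TPM.

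Of all tested genes 0.843% were members, so that fewer than 1 member per list would be found at this share, and the counts per list are a description. Of the 25 tested sarcomere and muscle actin genes 1 was a member (*sals*), of 12 actin-binding and cytoskeletal genes 1 (*Mbs*), and of 12 genes of calcium handling and excitability 1 (*nrv2*). No member was found among 66 genes of oxidative phosphorylation, 67 of the mitochondrial ribosome, 83 of the cytosolic ribosome, 30 of the proteasome, 33 translation factors, 12 of glycolysis and phosphagen use, 10 heat shock genes, 6 splicing factors and 2 cleavage and polyadenylation factors. Median implied ratios of these lists lay between 0.992 and 1.03. The cleavage and polyadenylation list, at the upper end, had only 2 tested genes.

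Genes near the thresholds were of the same kind. The members nearest to the upper threshold were *Polr2I* (1.56) and *gzl* (1.58), and the genes just below it were *CG31637* (1.48) and *CG5068* (1.42). At the lower threshold, *CG5989* (0.637) and *Cka* (0.635) were just inside, and *CG4239* (0.692) and *glob1* (0.702) just outside. Implied ratios of the 4 genes just outside lay between 0.981 and 1.06.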

How the data were processed

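Polyadenylated RNA from IFMs was sequenced as single-end reads of 100 bases, 1 library per genotype. The authors quantified reads with Salmon against annotated transcripts of *D. melanogaster* release 6.21 on Galaxy (Salmon version: not given in the sources used here); they deposited for each gene a length, an effective length, TPM and estimated counts of reads, without pooling. The deposited DESeq2 columns hold the authors' own comparison and were not used. All columns of per-sample values were mapped (0 left out).

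The design took the deposited length as a mean over transcripts. It was not, so lengths were recomputed from estimated reads and TPM, with the constant taken from genes with 1 transcript. Coordinates, symbols and transcripts came from the Ensembl 115 annotation (BDGP6.54), a later annotation of the same assembly. It matched 1765 of the 1780 tested genes. Possible shares were bounded by linear programming (SciPy 1.17.1). Steps were tested on simulated data. These data assumed the same annotation and number order, so neither the order nor the authors' transcript set was tested. No tests or p-values were possible. Members and lists were chosen with earlier results of these data known, and all members are named. No sequences are printed, and 1 of the gene lists is not reported here.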

Additional observations from a re-analysis of the deposited data

How the results depend on the processing

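The 5 longer and 10 shorter members became 26 and 25 with thresholds of 25% longer or 20% shorter, 0 and 1 with ratios of 2 or 0.5, 50 and 59 with no filter on TPM, 2 and 2 at 50 TPM or more, and 2 and 6 at 1000 estimated reads or more. They stayed at 5 and 10 with no filter on reads and with the effective length. With the implied length, chosen after seeing the data, they became 0 and 1, and with the implied length and the wider thresholds 1 and 2. The median log2 ratio of the longer members was 0.80 from deposited and 0.086 from implied lengths, and that of the shorter members -0.79 and -0.038. Both lengths lay within the annotated range in 0 members, also with a tolerance of 5%, and in 15 by the implied length. The share of *CHOp24-RB* could not be solved from the deposited length, which gave values outside 0% to 100%, and was the same from the implied effective length. The transcript order, also chosen after seeing the data, was not stated in the sources used here. No paired analysis was possible because each genotype had 1 library, and no library could be left out. Shares rest on few reads for *CHOp24* and *Polr2I*, among others, and any variation between flies is not measured. No stretch of 100 bases is particular to *nrv2-RF*, *sals-RH* or *sals-RE*.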

Other observations

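Among tested genes outside the 15, *LUBEL*, which encodes a linear ubiquitin ligase, had the largest difference in implied length. It fell from 8295 bases in the control to 5781 bases in *bs* KD, a ratio of 0.697, on 17067 and 6880 estimated reads. Its deposited length ratio was 0.849, so it did not meet the length rule. With *Mbs* and *Stacl*, it was 1 of 3 tested genes whose implied length was at least 25% longer or 20% shorter in *bs* KD.

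*CG31637*, just below the upper threshold, was the other gene with 2 transcripts whose share moved by at least 50 points. *CG31637-RA* (2672 bases) held 94.7% in the control and 28.9% in *bs* KD, and *CG31637-RB* (2595 bases), with the same coding sequence, the rest. The level was 12.6 TPM (585 reads) and 11.0 TPM (506 reads), and 77 stretches of 100 bases occur only in *CG31637-RA*.

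The values of *bs* itself did not settle which of its 3 transcripts changed in share. In the number order *bs-RC* held 14.8% of *bs* transcripts in the control and 0.0976% in *bs* KD, whereas in another possible order it held 51.0% and 65.1%. Levels were lower in *bs* KD for each *bs* transcript in every possible order. By number they were 1.07 and 0.813 TPM for *bs-RA*, 1.28 and 0.989 TPM for *bs-RB*, and 0.406 and 0.00176 TPM for *bs-RC*. These shares and levels rest on 148 and 98.3 estimated reads.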
